A study of Rattus norvegicus with 3 samples.

Results

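Genes of the extracellular matrix and of the integrin receptors were read on 3 rat expression arrays. The members were chosen by gene symbol alone, from probe sets that the platform annotation ties to a single gene: collagens, laminins, matrix metalloproteinases and their inhibitors, ADAM proteases, integrin chains, syndecans, fibronectin, elastin, the lysyl oxidases, decorin, biglycan, Sparc genes and thrombospondins. The rule gave 70 of 4736 genes, covered by 103 of 8740 probe sets other than controls. They were 15 collagens, 6 laminin chains, 12 matrix metalloproteinases, 3 tissue inhibitors, 10 ADAM genes, 11 integrin chains, 4 syndecans and 9 other matrix genes.

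The labels describe a time course in Rattus norvegicus, with a single array for each of the labels 0.0 h, 0.1 h and 1.0 h. The source label of every array names 2 tissues, pineal gland and adrenal medulla. The labels leave unclear whether an array holds 1 of them or both and whether 0.1 h was a real sampling time, and samples are numbered in their titles in another order than by time. A difference below is therefore between labelled arrays, and its part due to time or to tissue cannot be told apart. Strain, age, number of animals and the treatment were not given in the sources used here. With 1 array per label there was no replicate check, no p-value and no error across arrays, and precision is limited by this single array per label. In RNA from whole tissue, fewer cells of a type and less RNA per cell cannot be told apart.

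The extracellular matrix is the network of collagen fibres, laminin sheets and proteoglycans outside cells. Fibroblasts, endothelial cells and other cells secrete it, lysyl oxidases cross-link it, and metalloproteinases cut it while tissue inhibitors hold them in check. Cells grip it through integrins, pairs of an alpha and a beta chain, and through syndecans, membrane proteoglycans that carry heparan sulphate. In the pineal gland and the adrenal medulla, matrix lies around capillaries and in the septa between groups of secretory cells.

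A level below is the scaled intensity of a gene's brightest probe set, and levels of different genes were not compared with each other. A level was counted as measured when it lay above a floor, which was 249.1 at 0.0 h, 272.5 at 0.1 h and 273.3 at 1.0 h. Of the 70 genes, 49, 46 and 47 were above the floor on these arrays, which is 70.0%, 65.7% and 67.1%, against 68.6%, 68.1% and 69.0% of all genes. All 3 arrays measured 42 of the members and 2911 of all genes (61.5%), with another 12 on 1 or 2 arrays and 16 on none. Those on none were the ADAM genes Adam17, Adam18, Adam1a, Adam3a, Adam5 and Adam6, the collagens Col11a1 and Col9a1, the integrin chains Itgam, Itgav and Itgb4, the laminin chains Lama2, Lama3 and Lama5, and Mmp10 and Mmp8.

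Several facts of the arrays stand beside every result. Pinealocyte markers were above the floor on all 3 arrays for 9 of 9 genes, and those of chromaffin cells, the secretory cells of the adrenal medulla, for 5 of 9. The 5 were Pnmt, Chgb, Npy, Scg2 and Penk, while Th, Dbh, Slc18a1 and Slc18a2 were below the floor on all 3. The summed levels were 68645, 78177 and 65548 for the pinealocyte list and 74763, 75709 and 59065 for the chromaffin list. A sum is set mostly by the brightest genes of its list, as by Chgb with 64524, 61108 and 48348. Of the pinealocyte list, Asmt had 5746, 13861 and 9170, Aanat 253.0, 400.7 and 506.1, and Pdc 19482, 23098 and 9165. These, and Npy of the chromaffin list with 544.0, 373.1 and 814.0, were at least 2-fold apart in a comparison. The fibroblast and smooth muscle list, the usual source of fibrillar collagen, had 10 of 13 genes above the floor on all arrays, with Cnn1 and Des below it on all 3. Its summed level was 57294, 64783 and 61721. Summed endothelial markers were 4173, 3838 and 4373, with 4 of 8 above the floor on every array and Icam2 and Sele on none. Summed leukocyte markers were 6885, 8571 and 8959, with 6 of 11 on every array and Cd8a and Csf1r on none. Of these, Coro1a had 451.0, 918.7 and 1851, Ptprc 285.5, 722.7 and 503.4, Cd74 541.6, 400.7 and 806.8, and Fcer1a 1271, 699.5 and 525.9. Each was at least 2-fold apart in a comparison, with Fcer1a falling where Coro1a rose. No measured gene of the fibroblast and smooth muscle list or the endothelial list was. Lists for glia, choroid plexus, skeletal muscle and adrenal cortex were also read. Their only measured genes at least 2-fold apart were S100b of glia, with 1335, 3664 and 2357, and Enpp2 of choroid plexus, with 1549, 3319 and 1579. These were 2.74-fold and 2.14-fold higher at 0.1 h than at 0.0 h. Of the adrenal cortex list 0 of 5 genes were above the floor on all 3 arrays. Beta-actin controls had a 3' to 5' ratio of 10.4, 17.8 and 44.4, a figure that is higher in more degraded RNA, and for GAPDH it was 15.3, 18.6 and 14.1. The part of any of these in the differences below was not tested.

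Across the 3 arrays 10 of the 42 fully measured genes were at least 2-fold apart between their highest and lowest array (23.8%), against 17.7% of all genes. These 10 were Col1a1, Col1a2, Eln, Itga1, Itgae, Mmp7, Mmp23, Sdc1, Sdc4 and Sparc. At the other end, 18 of the 42 stayed within 1.5-fold (42.9%, against 50.5% of all genes). The lowest array was the 0.1 h array for 18 of the 42 (42.9%), and for 36.5% of all genes measured on all 3. The highest was the 1.0 h array for 17 of the 42 (40.5%), and for 32.8% of all genes.

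Between 0.1 h and 0.0 h the members that reached 2-fold were 5 of 42 upward, where 5.74% of all genes did, and 2 downward, where 4.57% did. The higher ones were Mmp7, Itgae, Sdc1, Sparc and Sdc4, and the lower ones Itga1 and Col1a2. Between 1.0 h and 0.0 h 1 of 45 was higher, Col1a1, against 2.47% of all genes, and 1 was lower, Eln, against 2.50%. Between 1.0 h and 0.1 h 2 of 43 were higher, Itga1 and Mmp23, against 4.02%, and 2 lower, Mmp7 and Sdc1, against 5.08%. Outside the first count of higher genes, the shares were close to those of all genes. The comparisons share arrays, so the error of any 1 array enters 2 of them. That first count was 3 of 42 on the values as deposited, against 4.97% of all genes. With probe sets averaged per gene it was 1 of 38, against 5.08%. With arrays set equal on their spike-in controls, which shifts all genes together, the higher and lower members were 1 and 5, 3 and 0, and 11 and 0, and all genes 81 and 301, 160 and 39, and 506 and 29. On the values as deposited, all genes were 173 higher and 126 lower between 1.0 h and 0.1 h, where the main scaling gave 121 and 153. The members' median log2 differences were -0.06, 0.09 and 0.10 in this order of comparisons, beside 0.00, 0.02 and 0.01 for all genes.

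**Figure D1:**
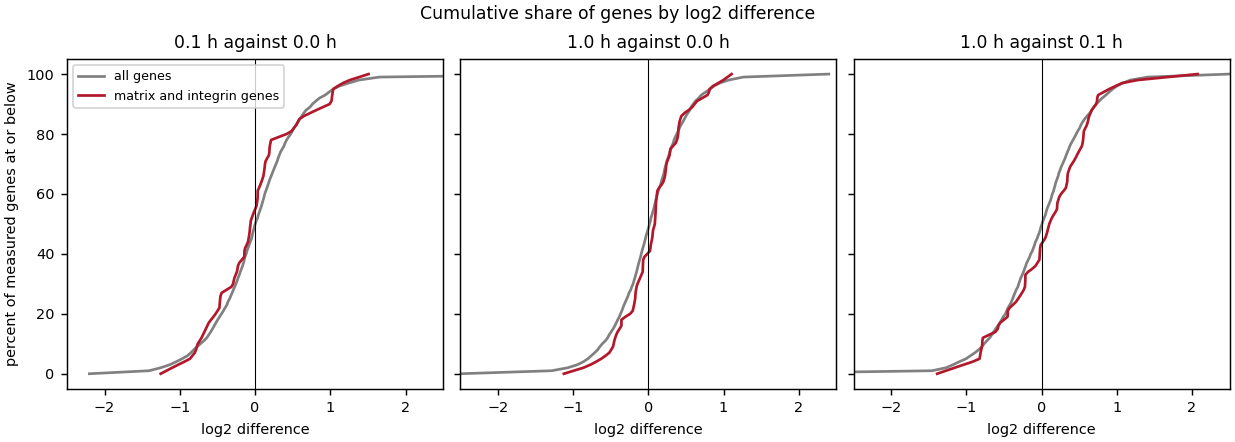
Cumulative share of measured genes, in percent, by log2 difference between 2 arrays, for the matrix and integrin genes (red) and all genes (grey), with 1 panel per comparison and the axis limited to the central range. The curves lie close together. The members' medians are -0.06, 0.09 and 0.10, and those of all genes 0.00, 0.02 and 0.01.

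The fibrillar collagens form the fibres of connective tissue. Col1a2, a chain of type I collagen, had levels of 25566, 12186 and 23014 at 0.0 h, 0.1 h and 1.0 h. It was 2.10-fold lower at 0.1 h than at 0.0 h and 1.89-fold higher at 1.0 h than at 0.1 h, so the 0.1 h array alone was low. The brightest probe set of its partner chain Col1a1 did not share this pattern, with 3321, 4846 and 7156, but another did, with 597.0, 453.9 and 679.7. It was 1.46-fold higher at 0.1 h and 2.15-fold higher at 1.0 h than at 0.0 h on its brightest probe set. The other measured probe sets of Col1a1 had log2 differences of 0.73, 0.19 and -0.32 between 1.0 h and 0.0 h, so its direction depended on the probe set. Averaged over all probe sets the difference was 0.43.

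Col5a2, a chain of type V collagen that helps set fibre thickness, had 10409, 6117 and 8986. Its low 0.1 h level resembled that of Col1a2, at 1.70-fold below 0.0 h. Col5a1, the partner chain, had 1221, 1392 and 1612, and Col3a1, the collagen of reticular fibres, had 3868, 3960 and 6040. Both were highest at 1.0 h, with Col3a1 1.56-fold and Col5a1 1.32-fold above 0.0 h.

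Among collagens of basement membranes, Col15a1, which lies at the outer face of such membranes, had 3162, 3240 and 4214. Col4a5, a network-forming type IV chain, had 1004, 549.6 and 698.5, which was 1.83-fold lower at 0.1 h than at 0.0 h. Col4a3, also of type IV, had 263.3, 213.2 and 306.9 and was below the floor at 0.1 h. The basement membrane genes thus did not move as one.

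Of the other collagens, Col9a1 was below the floor throughout. Col12a1, which decorates fibrils, had 589.8, 236.8 and 524.7 and was below the floor at 0.1 h only. Col26a1 had 628.1, 452.1 and 718.9, Col8a1, a collagen of vessel walls, 657.7, 628.1 and 852.4, and Col10a1, known from growth cartilage, 524.8, 491.6 and 566.8. Each of the latter 3 was lower at 0.1 h than at 1.0 h. Col2a1, the cartilage collagen, had 251.4, 125.0 and 249.8 and was above the floor at 0.0 h only, by a narrow margin.

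Taking the collagens as a family, 10 of 10 measured genes were higher at 1.0 h than at 0.1 h, with log2 differences from 0.21 to 0.92 and a median of 0.50. Of all genes 1516 of 3013 were higher in this comparison. The count was 10 of 10 under each other scaling tried, and 1 of 2 on second-brightest probe sets. None of the 10 collagens reached 2-fold on the main scaling. Col1a2 reached it with 1.01 as deposited and 1.06 with quantile normalisation. Equal spike-in controls gave it 1.39 and took other collagens past 2-fold as well. On the main scaling the spread of the log2 differences over all genes, as an SD from the median absolute deviation, was 0.55. The family was singled out after its values were seen. Over single probe sets 13 of 14 were higher, and the 1 that was lower belonged to Col1a1, with -0.69. Against 0.0 h the family was split: 4 of 10 were higher at 0.1 h, with a median of -0.08, and 8 of 12 at 1.0 h, with a median of 0.21. The fibroblast and smooth muscle list had a median of -0.08 between 1.0 h and 0.1 h, with 4 of 11 higher.

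**Figure D2:**
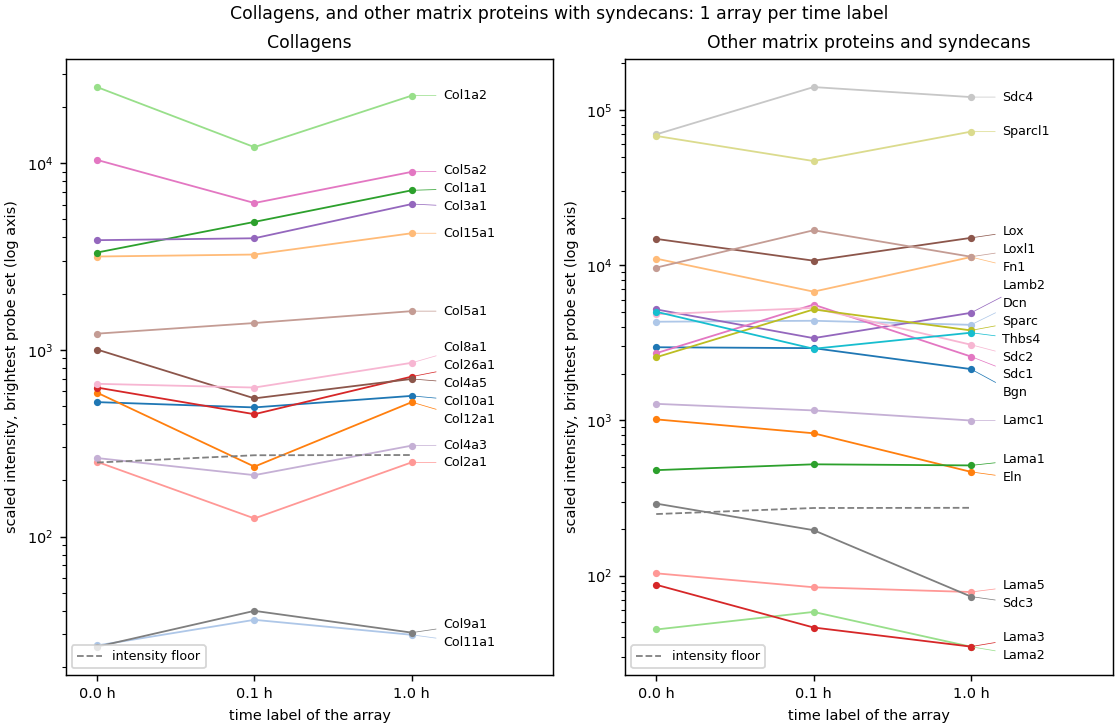
Scaled intensity (log axis) of each collagen gene (left) and of the other matrix proteins and syndecans (right) on the arrays labelled 0.0 h, 0.1 h and 1.0 h. Points are single arrays, lines join the points of a gene, and the dashed line is the floor. Col1a2 dips from 25566 to 12186 at 0.1 h and returns to 23014, while Col1a1 goes from 3321 to 7156. Sdc1 and Sparc peak at 0.1 h with 5569 and 5186.

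Laminins are the cross-shaped proteins of basement membranes. Lamb2, the beta chain of many vessel and nerve laminins, had 5187, 3387 and 4930, which was 1.53-fold lower at 0.1 h than at 0.0 h. Its other probe set was lower at 0.1 h as well, with a log2 difference of -0.28. Lamc1, the gamma chain shared by most laminins, had 1278, 1159 and 997.9, and Lama1 had 477.8, 521.1 and 512.6. The measured laminin chains had differences from -0.62 to 0.12 at 0.1 h against 0.0 h, and none was 2-fold apart in any comparison.

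Fibronectin, Fn1, which links cells to collagen, had 11020, 6750 and 11285 on its brightest probe set. As with Col1a2, the 0.1 h array was low, 1.63-fold below 0.0 h and 1.67-fold below 1.0 h. Of the other 4 Fn1 probe sets, 1 was above the floor on 2 arrays, with levels of 77.93, 475.9 and 577.1. It was thus below the floor at 0.0 h and above it at 0.1 h, unlike the brightest, and 0.28 higher on the log2 scale at 1.0 h than at 0.1 h. Elastin, Eln, the rubber-like protein of vessel walls, had 1015, 825.7 and 465.8 from a single probe set. It was lowest at 1.0 h, 2.18-fold below 0.0 h and 1.77-fold below 0.1 h.

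Lysyl oxidases cross-link collagen and elastin. Lox had 14767, 10687 and 14996 on its brightest probe set, low at 0.1 h by 1.38-fold against 0.0 h, but its 4 probe sets had log2 differences of -0.47, -0.33, -0.04 and 0.17. Loxl1, which acts on elastic fibres, had 9644, 16784 and 11331 and was 1.74-fold higher at 0.1 h than at 0.0 h. Its other probe set was at -0.16, so neither lysyl oxidase gene had 1 direction.

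Sparc encodes a collagen-binding protein that modulates the contact of cells with matrix. Its brightest probe set had 2551, 5186 and 3798 and was 2.03-fold higher at 0.1 h than at 0.0 h. The log2 differences of its 4 probe sets were 1.35, 1.02, 0.06 and -0.67, and their mean was 0.44. Sparcl1, a relative that astrocytes and vessels make, had 68012, 46866 and 72495, with the 0.1 h array low, 1.45-fold below 0.0 h. Thbs4, a thrombospondin of tendon and nerve, had 5009, 2893 and 3671 and was 1.73-fold lower at 0.1 h. The measured matricellular genes therefore went both ways.

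Decorin and biglycan are small proteoglycans that bind collagen fibrils. Decorin, Dcn, had 4321, 4383 and 4127, within 1.06-fold over the 3 arrays on the brightest probe set. Its other measured probe sets were at -0.38 and 0.46 between 0.1 h and 0.0 h, on either side of this near-level reading. Biglycan, Bgn, had 2959, 2920 and 2140, which was 1.38-fold lower at 1.0 h than at 0.0 h. Its other probe set had 72.29, 131.3 and 279.1 and was above the floor at 1.0 h only. Averaged over both, the log2 difference between 1.0 h and 0.0 h was 0.74 in place of -0.47. The direction for Bgn thus depended on whether the probe set below the floor at 0.0 h was taken in.

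Syndecans are co-receptors for matrix and growth factors. Sdc4, found in focal adhesions beside integrins, had 69607, 140460 and 121067, and was 2.02-fold higher at 0.1 h and 1.74-fold at 1.0 h than at 0.0 h. A second Sdc4 probe set was 1.26 higher on the log2 scale at 0.1 h and 0.17 higher at 1.0 h, so the 0.1 h difference appeared on both and the 1.0 h difference mainly on 1. The dimmest Sdc4 probe set was above the floor at 0.0 h only. Quantile and cyclic loess normalisation gave log2 differences of 0.93 and 0.96 for Sdc4 at 0.1 h, just under 2-fold. With all 3 Sdc4 probe sets averaged it was 0.32. Between 1.0 h and 0.0 h the average was -0.59 in place of 0.80, the opposite direction. That average took in the dimmest probe set, which had 311.7, 125.1 and 46.59. The brighter probe sets were both higher at 1.0 h than at 0.0 h, by 0.80 and 0.17.

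Sdc1, the syndecan of epithelia and plasma cells, had 2709, 5569 and 2578, high on the 0.1 h array alone. It was 2.06-fold above 0.0 h there, and 1.0 h was 2.16-fold below 0.1 h. The other Sdc1 probe set was at 0.26 and 0.20 in these comparisons, so only the brightest showed the peak. Sdc2, the syndecan of mesenchyme, had 4826, 5300 and 3072 and was 1.57-fold lower at 1.0 h than at 0.0 h. Sdc3, the neural syndecan, had 290.9, 196.1 and 73.24 and was above the floor at 0.0 h only. On brightest probe sets the 3 syndecans measured on all arrays were lower at 1.0 h than at 0.1 h, except that Sdc4 was at 0.26 with arrays set equal on spike-in controls.

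**Figure D3:**
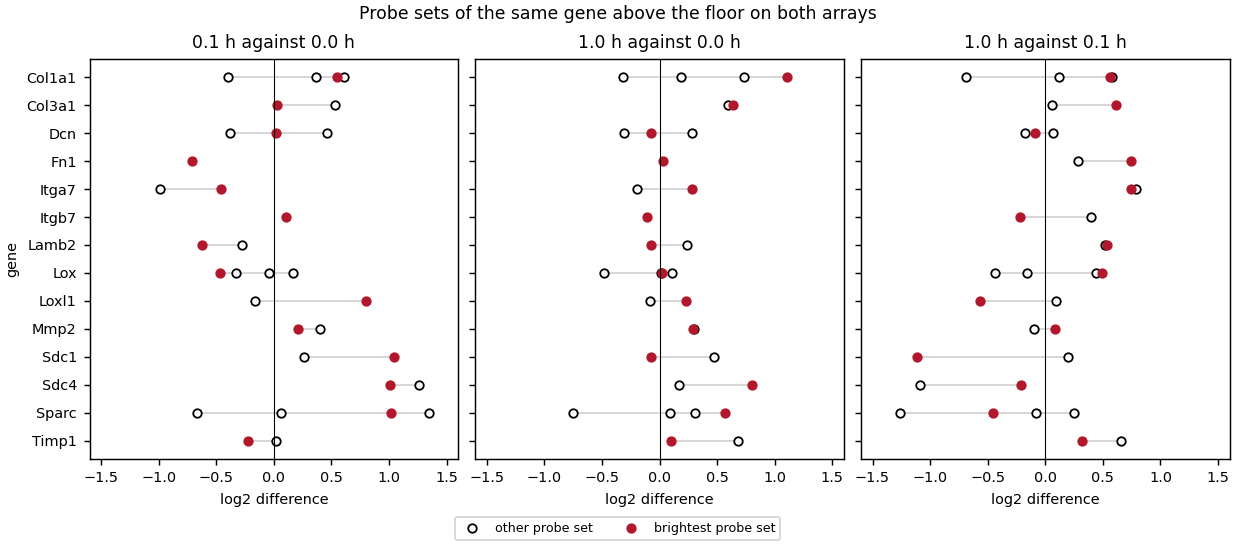
Log2 differences of every probe set above the floor on both arrays, for genes with 2 or more such probe sets in at least 1 of the 3 comparisons. Filled points are the brightest probe set of a gene and open points its others. Points of Sparc lie on both sides of 0 at 0.1 h against 0.0 h, from -0.67 to 1.35, and both points of Sdc4 lie at 1.01 and 1.26.

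Where a gene had 2 or more measured probe sets, they often disagreed in sign. This was so for 6 of 12 genes between 0.1 h and 0.0 h, 8 of 12 between 1.0 h and 0.0 h and 8 of 14 between 1.0 h and 0.1 h. Col1a1, Dcn, Lox, Loxl1 and Sparc disagreed in all 3 comparisons. Of the 70 genes 51 had a single probe set, for which no such check was possible.

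Integrins join the matrix to the actin skeleton. Itga1, a collagen-binding alpha chain, had 1394, 584.4 and 2463. It was 2.39-fold lower at 0.1 h than at 0.0 h, 1.77-fold higher at 1.0 h than at 0.0 h and 4.21-fold higher at 1.0 h than at 0.1 h. This was the widest span among the members measured on all 3 arrays, and it came from 1 probe set. Itga7, a laminin-binding chain, had 5597, 4082 and 6810 and was also lowest at 0.1 h. Both of its measured probe sets had this low point, with log2 differences of 0.74 and 0.79 between 1.0 h and 0.1 h.

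The beta chain that pairs with both, Itgb1, ran the other way, with 17364, 26269 and 15207. It was 1.51-fold higher at 0.1 h than at 0.0 h, and 1.0 h was 1.73-fold below 0.1 h. Itgae, an alpha chain of lymphocytes in epithelia, had 427.2, 985.3 and 562.2, 2.31-fold higher at 0.1 h than at 0.0 h. Its other 2 probe sets were below the floor on all arrays. Itgb7, the chain that pairs with Itgae, had 595.9, 643.0 and 551.5 on its brightest probe set. Its other probe set had 92.54, 298.0 and 394.3, below the floor at 0.0 h, and was 0.40 higher on the log2 scale at 1.0 h than at 0.1 h where the brightest was at -0.22.

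Itga2b, the platelet alpha chain, had 1008, 1398 and 1372. Its partner Itgb3 lay at the floor, with 269.3, 254.4 and 279.6. Itga8, a chain of smooth muscle and mesangial cells, had 228.8, 327.3 and 108.4 and was above the floor at 0.1 h only. Itgam, of macrophages and granulocytes, and Itgav, the vitronectin-binding chain, were below the floor throughout. The 4 measured alpha chains were higher at 1.0 h than at 0.0 h on their brightest probe sets, by log2 differences of 0.28 to 0.82, but the other Itga7 probe set was at -0.20. At 0.1 h they were split, 2 higher and 2 lower than at 0.0 h.

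Matrix metalloproteinases cut matrix proteins. Of these, 6 lie on chromosome 8 in the rat reference, and the bases before their starts are shown because most of them share a letter pattern while their readings differed between arrays in unlike ways. Given here are the 120 bases before the RefSeq start of each gene, assembly GRCr8, 5′ to 3′, with the letters TGANTCA in capitals. TGANTCA takes in TGAGTCA and TGACTCA, the letters bound by AP-1, the Fos and Jun dimer. Any letter was allowed at N and either strand was searched, also for the shares given below.
Mmp3 (chr8:12925161-12925280, plus strand): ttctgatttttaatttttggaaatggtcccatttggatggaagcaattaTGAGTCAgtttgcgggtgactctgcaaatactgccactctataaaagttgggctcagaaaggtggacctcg
Mmp7 (chr8:13132923-13133042, plus strand): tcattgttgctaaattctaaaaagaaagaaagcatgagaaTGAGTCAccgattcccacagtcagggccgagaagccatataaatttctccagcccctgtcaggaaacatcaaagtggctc
Mmp13 (chr8:12782709-12782828, plus strand): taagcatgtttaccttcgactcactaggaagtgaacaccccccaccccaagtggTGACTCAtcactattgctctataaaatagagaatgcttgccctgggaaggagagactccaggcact
Mmp12 (chr8:12866532-12866651, plus strand): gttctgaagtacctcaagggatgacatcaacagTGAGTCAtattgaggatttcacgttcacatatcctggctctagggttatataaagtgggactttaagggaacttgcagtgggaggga
Mmp10 (chr8:12974587-12974706, plus strand): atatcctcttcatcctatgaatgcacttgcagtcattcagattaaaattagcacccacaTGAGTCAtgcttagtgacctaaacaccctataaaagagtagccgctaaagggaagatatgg
Mmp8 (chr8:13008770-13008889, plus strand): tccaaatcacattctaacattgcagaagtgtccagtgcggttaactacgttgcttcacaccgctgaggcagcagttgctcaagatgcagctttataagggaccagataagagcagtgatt

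The capitals lie 71 to 65 bases before the start in Mmp3, 80 to 74 in Mmp7, 66 to 60 in Mmp13, 87 to 81 in Mmp12 and 61 to 55 in Mmp10, and Mmp8 has none in the 250 bases searched. RefSeq promoters were found for 46 of the 70 genes, and 6 of these held the letters in that window (13.0%), the sixth being Lama3. The share was 5.30% over the 4191 promoters of genes on the arrays and 6.34% over all 33469 in the table. A match is a run of letters only.

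The genes of this cluster had unlike values. Mmp3, stromelysin, which cuts many matrix proteins, had 69666, 79601 and 82459, within 1.18-fold over the 3 arrays. Mmp7, matrilysin, had 269.1, 766.0 and 292.7 and was high at 0.1 h alone, 2.85-fold above 0.0 h and 2.62-fold above 1.0 h. Its 0.0 h and 1.0 h levels were just above the floor, from 1 probe set. Mmp13, a collagenase, had 536.7, 454.6 and 302.4 and was 1.77-fold lower at 1.0 h than at 0.0 h. Mmp12, the macrophage elastase, had 293.0, 236.9 and 186.5 and was above the floor at 0.0 h only. Mmp10, and Mmp8, which lacks the letters, were below it throughout. The part of the letters in these readings was not tested.

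Among the metalloproteinases elsewhere, Mmp14, a membrane-bound enzyme that activates Mmp2, had 2222, 1405 and 1664, 1.58-fold lower at 0.1 h than at 0.0 h. Mmp2, the gelatinase of fibroblasts, had 1424, 1652 and 1745, and its other probe set was higher at both later labels too, by 0.40 and 0.30. Mmp9, the gelatinase of leukocytes, had 179.5, 444.8 and 350.4 and was below the floor at 0.0 h, so no fold against that array was taken. Mmp23 had 445.0, 403.0 and 878.9 and was 2.18-fold higher at 1.0 h than at 0.1 h and 1.98-fold higher than at 0.0 h. Mmp11 had 75.21, 185.1 and 291.9, above the floor at 1.0 h only, and Mmp16 had 278.9, 187.9 and 178.6, above it at 0.0 h only. Only Mmp7 and Mmp23 were 2-fold apart in any comparison, on different arrays.

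Tissue inhibitors block these enzymes. Timp1 had 8991, 7700 and 9629, and Timp2, which also takes part in the activation of Mmp2, had 8100, 7789 and 8605. Neither differed by more than 1.25-fold between any arrays on its brightest probe set. The second Timp1 probe set was 0.68 higher on the log2 scale at 1.0 h than at 0.0 h, against 0.10 on the first. Timp3, the inhibitor that binds to matrix, had 246.7, 370.8 and 230.0 and was above the floor at 0.1 h only.

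ADAM proteases shed proteins from the cell surface, and several are best known from germ cells. Adam10, a widespread sheddase, had 384.3, 404.9 and 400.9. Adam2, a sperm surface protein, had 1375, 1304 and 1073, and Adam7, known from the epididymis, 372.9, 307.4 and 330.2. Adam4 had 148.1, 389.1 and 128.7 and was above the floor at 0.1 h only. The 3 measured on all arrays were within 1.28-fold of 0.0 h.

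**Figure D4:**
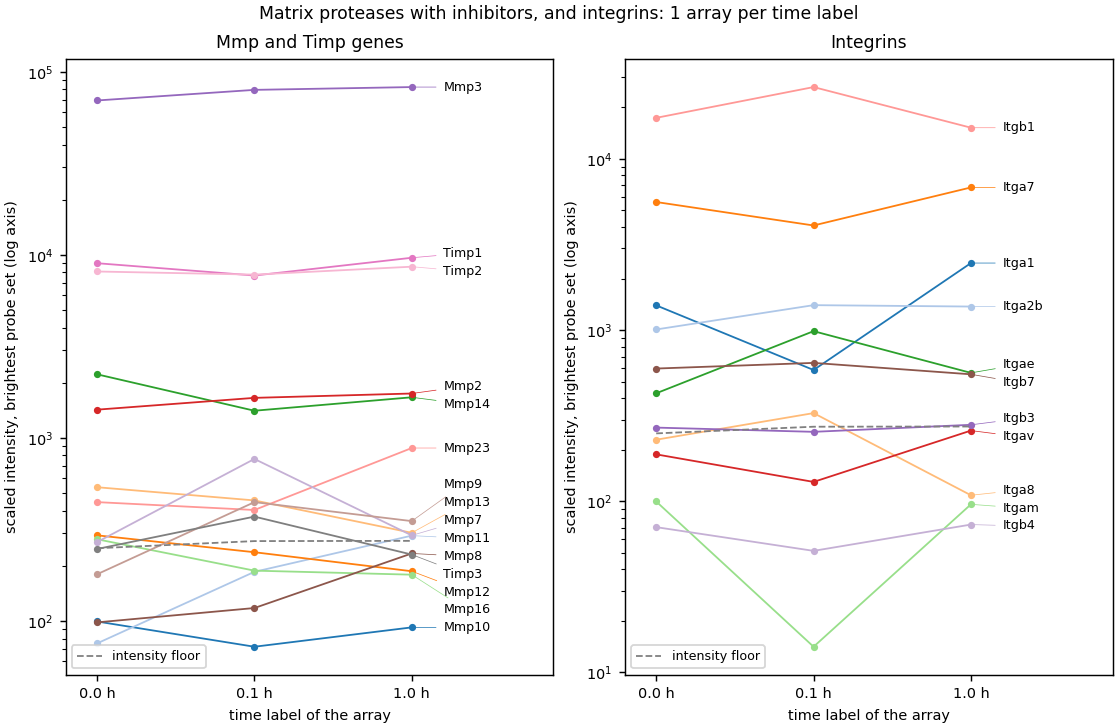
Scaled intensity (log axis) of the Mmp and Timp genes (left) and the integrin chains (right) on the arrays labelled 0.0 h, 0.1 h and 1.0 h. Points are single arrays, lines join the points of a gene, and the dashed line is the floor. Mmp7 peaks at 0.1 h with 766.0, Mmp3 is nearly level, and Itga1 goes from 584.4 to 2463 while Itgb1 peaks at 26269.

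**Figure D5:**
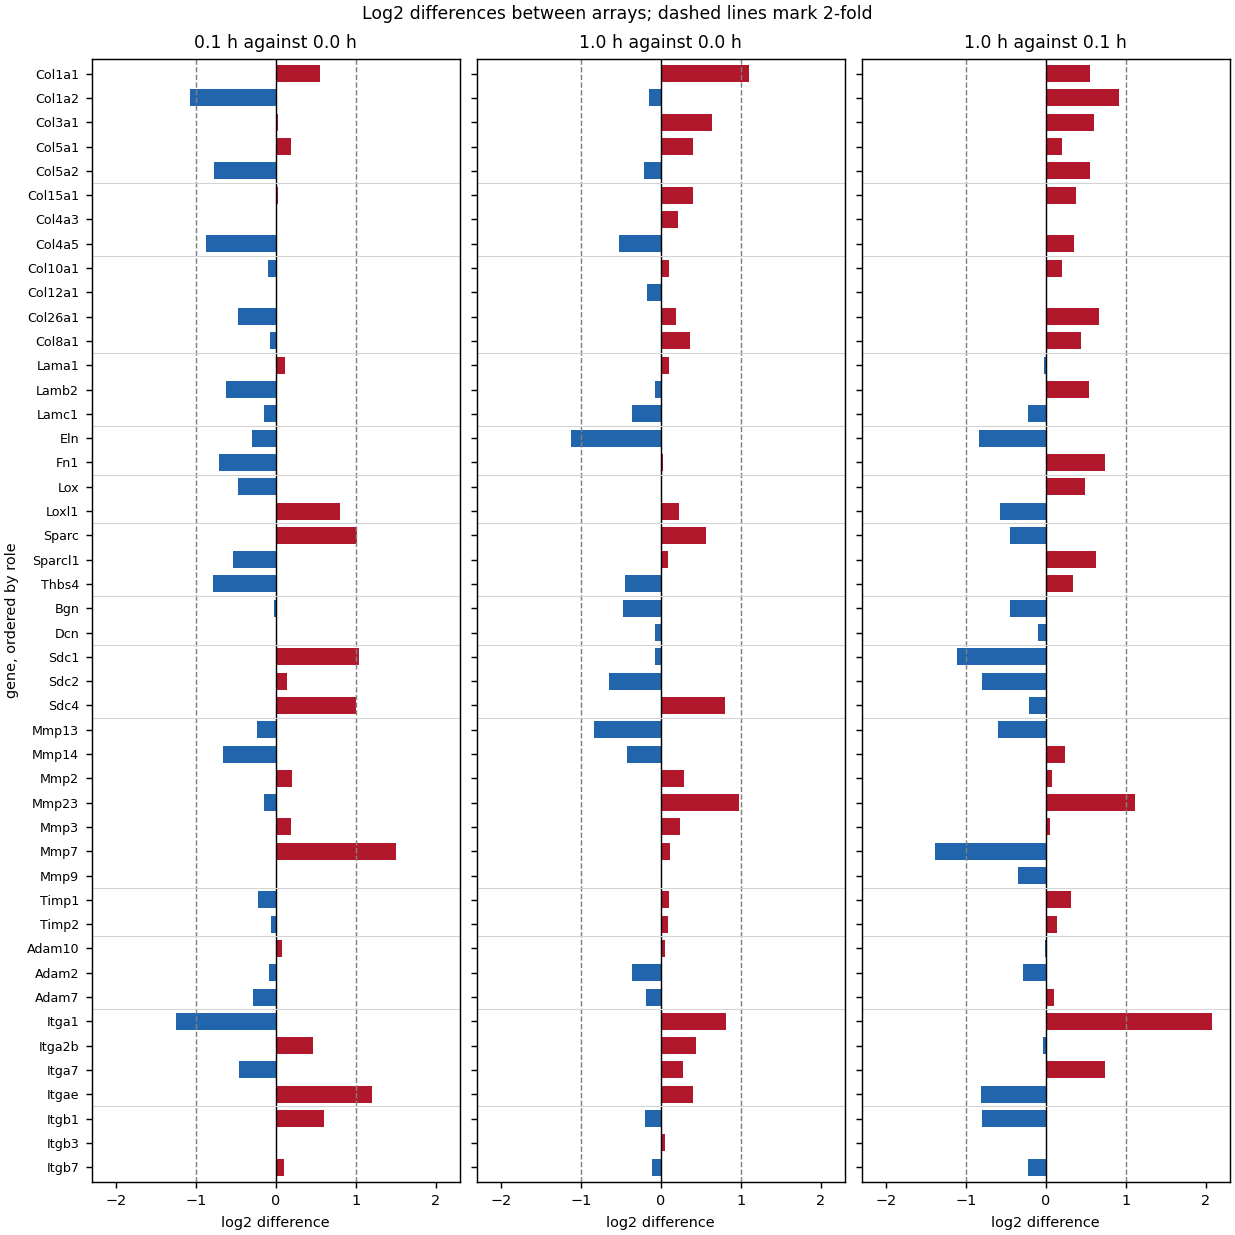
Log2 difference of each gene measured in a comparison, from its brightest probe set, ordered by role, with 1 panel per comparison and dashed lines at 2-fold. Bars are single differences between 2 arrays and have no error. In the right panel the 10 collagen bars all point to the right, from 0.21 to 0.92, and Itga1 reaches 2.08.

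Genes that build, bind or signal from the matrix but lie outside the symbol rule were read from 4 lists. Each is given from its brightest probe set only, though Ncan, Cd44, Tnc, Cdc42 and Tgfb3, among others, had 2 or more. Of 33 other matrix and matrix assembly genes on the arrays, 26 were measured between 0.1 h and 0.0 h, with a median log2 difference of -0.16 and 2 at least 2-fold higher. Ncan, a neural proteoglycan, had 265.2, 581.2 and 188.0, 2.19-fold higher at 0.1 h than at 0.0 h. Its 0.0 h level was just above the floor and its 1.0 h level below it. Cd44, the hyaluronan receptor, had 351.3, 703.7 and 514.6, 2.00-fold higher at 0.1 h. The list shares Cspg4, Lum and Mgp with the fibroblast and smooth muscle list. Between 1.0 h and 0.1 h the median was 0.40 over 24 genes, beside 0.01 for all genes, with 16 higher, 8 lower, and 1 at least 2-fold apart each way. Tenascin-C, Tnc, a matrix protein of tissue repair, had 495.1, 494.8 and 994.0, 2.01-fold higher at 1.0 h than at either other label. Osteopontin, Spp1, which binds integrins, had 18255, 23202 and 6574, 2.78-fold and 3.53-fold lower at 1.0 h than at 0.0 h and 0.1 h.

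Several enzymes of that list modify collagen chains inside the cell. The prolyl hydroxylase subunit P4hb had 33485, 20775 and 32870, and the lysyl hydroxylase Plod2 had 3084, 1700 and 3246. Plod3 had 6890, 4696 and 8106, and P4ha1 had 6631, 5784 and 10503, so these 4 were lowest at 0.1 h, as Col1a2 was. Plod1 did not share this, with 1240, 1316 and 1070. The collagen chaperone Serpinh1 had 1699, 1773 and 2324, and Pcolce, which aids the trimming of procollagen, had 515.5, 950.8 and 810.3.

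Among 15 focal adhesion genes on the arrays, which couple integrins to actin, 11 were measured in each comparison. Talin, Tln1, which switches integrins on, had 2675, 1092 and 2523, 2.45-fold lower at 0.1 h than at 0.0 h and 2.31-fold higher at 1.0 h than at 0.1 h. The small GTPase gene Cdc42 had 16084, 38512 and 18471, 2.39-fold higher at 0.1 h and 2.08-fold lower at 1.0 h than at 0.1 h. The list's medians were -0.32, 0.08 and 0.42 for 0.1 h against 0.0 h, 1.0 h against 0.0 h and 1.0 h against 0.1 h. The plasminogen and other proteolysis genes had medians of 0.05, 0.06 and 0.03. Their only 2-fold difference was in the inhibitor gene Serpine2, with 192.6, which is below the floor, 700.1 and 338.0, 2.07-fold lower at 1.0 h than at 0.1 h.

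The transforming growth factor beta list, whose ligands are strong inducers of matrix genes, had medians of -0.06, -0.14 and -0.12 over 9 of 17 genes. Tgfb3 had 13640, 7997 and 16195 and was 2.02-fold higher at 1.0 h than at 0.1 h. Tgfb1 and the receptor gene Tgfbr1 were below the floor on all 3 arrays. Tgfb3 was lowest on the 0.1 h array, as were Col1a2, Col5a2 and Fn1, while Col1a1, Col3a1 and Col5a1 were lowest at 0.0 h. The 0.1 h array was lowest for 36.5% of all genes measured on all 3. A link of Tgfb3 to the matrix genes was not tested.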

How the data were processed

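The authors' deposited values were 1 linear intensity per Affymetrix probe set for each of the 3 arrays. Software and background correction were not given in the sources used here. On each array the mean of the deposited values without the highest and lowest 2% was 2499.9. Of 8799 probe sets 59 controls were left out. The platform annotation named 7006 with 1 symbol, 308 with several and 1426 with none, and no probe set with several symbols held a member's symbol. All 70 members matched a RefSeq gene of GRCr8 by gene ID, with 0 renamed.

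Intensities were taken to log2 and set to equal array medians. The floor was the 40th percentile of all values, an intensity of 264.7 before a last shift that equalised the medians of probe sets above it on all arrays. After that shift the floor differed by array. The net shifts from the deposited values were 0.01, 0.04 and -0.05. Each gene was read from 1 probe set, the brightest by mean log2 over the arrays. A difference was taken where both arrays were above the floor, and counted at 2-fold. There was no test. The scripts were tested on simulated data.

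Named by rule were genes at least 2-fold apart, the 2 brightest of each role, and all Timp, Mmp and integrin genes. Members that went from the floor to over the 60th percentile between arrays were also to be named (there were none). Of the other pathway and cell type lists given here, the genes at least 2-fold apart were named. Other genes, collagen enzymes among them, were added after their values were seen. The members and lists were chosen with earlier results of these data known. Tried in their place were the deposited scale, quantile and cyclic loess normalisation (limma 3.58.1, R 4.3.3), equal spike-in controls, floors at the 20th and 60th percentile or none, and the mean or the second-brightest probe set of a gene. Analyses ran in Python 3.11.15.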

Additional observations from a re-analysis of the deposited data

How the results depend on the processing

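No paired analysis was possible because each time label had 1 array. The number of arrays, and for dim genes the signal over background, limit every value. Shifting the arrays so that the 9 spike-in controls had equal means moved all genes together, with medians of -0.27, 0.21 and 0.48 for 0.1 h against 0.0 h, 1.0 h against 0.0 h and 1.0 h against 0.1 h. The members' medians were then -0.34, 0.28 and 0.57, and the members at least 2-fold higher and lower were 1 and 5, 3 and 0, and 11 and 0. Between 0.1 h and 0.0 h the members' median was 0.10 on second-brightest probe sets, beside 0.11 for all genes. As deposited the higher members were 3 of 42, against 4.97% of all genes. With the floor at the 60th percentile they were 3 of 29, against 4.62%. With no floor they were 10 of 70, against 12.3%, and with probe sets averaged 1 of 38, against 5.08%. On second-brightest probe sets they were 1 of 12, against 8.07%. With the floor at the 20th and 60th percentile the lower members were 4 of 55 and 1 of 29, against 7.53% and 4.34%. They were 5 of 70 with no floor, against 9.61%, and 0 of 12 on second-brightest probe sets, against 3.15%. Between 1.0 h and 0.0 h the lower floor, at the 20th percentile, gave the members a median of -0.02, beside -0.03 for all genes. The count of higher members was 2 as deposited, 2 with the floor at the 20th percentile, 4 with no floor, and 0 both with probe sets averaged and on second-brightest ones. With the floor at the 20th and 60th percentile the lower members were 2 of 56 and 0 of 29, against 5.05% and 2.15%. They were 4 of 70 with no floor, against 6.88%, and 0 of 12 on second-brightest probe sets, against 2.21%. Between 1.0 h and 0.1 h the higher members numbered 0 of 28 under a floor at the 60th percentile, against 3.39% of all genes. They were 4 of 70 with no floor, against 10.7%, and 0 of 14 on second-brightest probe sets, against 2.67%. The lower members were 4 of 55 and 1 of 28 with the floor at the 20th and 60th percentile, against 6.76% and 4.73%. They were 6 of 70 with no floor, against 9.42%. With probe sets averaged they were 1 of 41, against 4.70%, and on second-brightest probe sets 1 of 14, against 6.82%. With the floor at the 60th percentile 31 members were above it at 0.0 h and 31 at 1.0 h. On second-brightest probe sets, which 19 members had, 12, 14 and 15 were above the floor, since fewer genes could be read. Of 35 gene differences that could be read on a second-brightest probe set, 18 had the opposite sign there, and 3 of these were of at least 2-fold on the brightest: Sparc at 0.1 h against 0.0 h with -0.67, Col1a1 at 1.0 h against 0.0 h with -0.32, and Sdc1 at 1.0 h against 0.1 h with 0.20. With probe sets averaged 11 of 106 differences had the opposite sign, those of Bgn and Sdc4 between 1.0 h and 0.0 h among them, with 0.74 and -0.59. Those averages of Bgn and Sdc4 took in a dim probe set, which was below the floor at 0.0 h for Bgn and at 1.0 h for Sdc4. The cause of the sign changes was not tested. Collagens higher at 1.0 h than at 0.1 h, an alternative set added after the data were seen, were 10 of 10 with each other scaling. For the deposited scale and equal spike-in controls this was fixed in advance, since both moved all genes upward together. The count was 13 of 13 with the floor at the 20th percentile, 6 of 6 at the 60th and 13 of 15 with no floor. With probe sets averaged it was 9 of 9, and on second-brightest probe sets 1 of 2.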
